A study of Mus musculus with 15 samples.

Results

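The Hox cluster genes are homeobox transcription factors that lie in 4 clusters, Hoxa on chromosome 6, Hoxb on chromosome 11, Hoxc on chromosome 15, and Hoxd on chromosome 2 of the mouse. Their members on Agilent arrays of the mouse genome hybridized in one color were taken as all noncontrol probes whose gene name is Hoxa, Hoxb, Hoxc, or Hoxd followed by a number. This gave 49 of 41174 probes and 38 genes. The RefSeq gene table of the mouse lists 39 such genes, and Hoxc11 had no probe that matched by name or accession. Uterine RNA of adult ovariectomized mice (10 weeks or older, rested for 10 to 14 days after surgery) was measured on 15 arrays in 5 groups of 3. The groups were saline vehicle at 24 hr (100 μl ip), estradiol (E2) at 2 hr, estriol (E3) at 2 hr, E2 at 24 hr, and E3 at 24 hr, each estrogen at 250 ng in 100 μl saline. E3 is a weak estrogen that differs from E2 by an additional hydroxyl group on the D ring.

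The mice of the saline, E3, and 24-hr E2 groups were C57bl6/J. Those of the 2-hr E2 group were C57bl6/Jx129 with WT Esr1, and their arrays sat on other slides and were scanned on another scanner and day, so that strain, slides, scanner, and treatment cannot be told apart for this group. Saline array 3 and the 2-hr E3 arrays shared a slide, and no other slide held arrays of more than 1 group, so that in all other comparisons, those of E3 between times and of both compounds at 24 hr included, slide and group cannot be told apart. No 2-hr vehicle array was analysed here, and the 24-hr saline arrays served both times. The sample protocol has each uterus homogenized singly whereas the methods describe pooled tissue, so the p-values measure the spread between these arrays, which may be partly technical.

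Hox proteins bind DNA together with cofactors of the Pbx, Meis, and Pknox (Prep) families and give cells along the body axis their regional identity. Genes of the same number in different clusters are paralogs, and low numbers (the 3′ end of a cluster) act toward the head whereas high numbers (the 5′ end) act toward the tail. In the female reproductive tract, Hoxa9, Hoxa10, Hoxa11, and Hoxa13 pattern the oviduct, the uterus, the lower uterus and cervix, and the upper vagina, respectively. Hoxa10 and Hoxa11 are also needed in the adult uterus for implantation, and Hoxa10 is known as a gene that steroid hormones regulate.

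Whole tissue held RNA of other organs to an unequal degree. The summed level of 9 liver markers (linear, 1 = the 75th percentile of the array) was 5.80 to 21.8 on the saline arrays, 1.40 to 3.59 at 2 hr of E3, and at most 0.55 in the other groups. Exocrine pancreas markers summed to 501.5 and 10.1 on arrays 2 and 3 of E3 at 2 hr and to 230.8 and 4.6 on arrays 2 and 3 of E2 at 24 hr, and to 0.249 to 0.532 on the other 11 arrays. Both uterine hormone receptor genes, Esr1 and Pgr, and the 7 smooth muscle and 7 stroma markers passed the background filter. Between 77.8% and 81.8% of probes were well above background on each array.

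Of the 38 Hox genes, 30 were well above background on all 15 arrays, each judged by its brightest probe. The uterus thus gave signal for the whole Hoxa cluster and for the middle of the Hoxb and Hoxd clusters. In the Hoxc cluster the genes detected throughout included Hoxc4 at the 3′ end but not Hoxc8. All 11 Hoxa genes, 8 of 10 Hoxb genes, 5 of 8 Hoxc genes, and 6 of 9 Hoxd genes were detected on every array. By paralog group, every gene with a probe in groups 2 to 7 and 9 to 11 was detected on every array. Groups 1, 8, 12, and 13 were mixed. In group 1 Hoxd1 was detected on 3 arrays and Hoxb1, which had 10 spots per array, on 0. In group 8 Hoxb8 and Hoxd8 were detected throughout and Hoxc8 on 5 arrays. In group 12 Hoxd12 was detected on 9 arrays and Hoxc12 on 0, and in group 13 Hoxa13 was detected on 15 arrays, Hoxd13 on 3, Hoxb13 on 1, and Hoxc13 on 0. Signals of different probes were not set against each other, so no order of abundance among the genes is given.

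**Figure D1:**
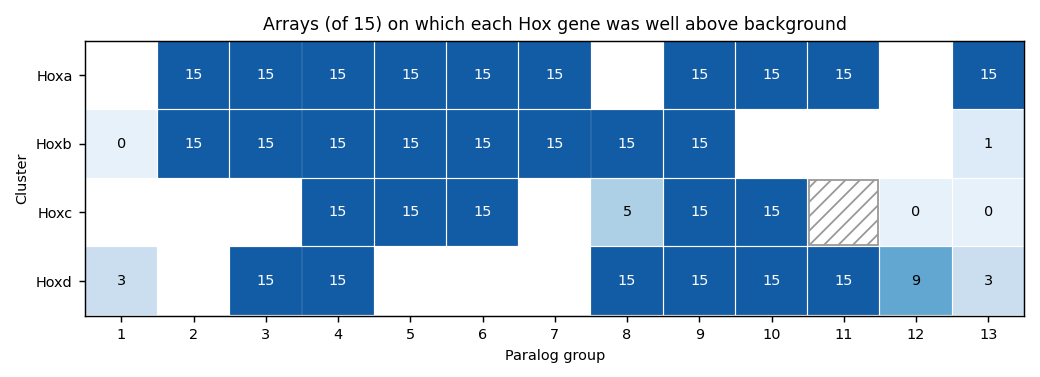
Number of arrays, of 15, on which the brightest probe of each Hox gene was well above background, by cluster (rows) and paralog group (columns). Blank cells have no gene in the mouse or are not shown, and the hatched cell is Hoxc11, which had no probe. Dark cells at 15 fill the Hoxa cells shown and paralog groups 2 to 7 and 9 to 11, and pale cells (0 to 9 arrays) lie in groups 1, 8, 12, and 13.

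Because Hox genes share the homeobox, the stretch that codes for the DNA-binding domain, the probes were compared with each other. The longest run of identical bases between a Hox probe and a probe of another Hox gene was 7 to 22 bases (median 9) over the 49 probes of 60 bases, and 3 probes had a run over 12 bases. The longest, of 22 bases, was shared by the Hoxa9 and Hoxb3 probes and belongs to the homeobox. The array annotation also assigns the Hoxb3 probe to Hoxd3. Probes were compared with probes and not with transcripts, so a short shared run does not show that a probe is specific. Whether any Hox probe took up RNA of a related gene was not tested.

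Groups were compared with limma over all 15 arrays on the log2 processed signal relative to the 75th percentile of each array, which is the scale of every level below. A gene was called when p was below 0.001 and the change at least 2-fold (the cutoffs of the study), and adjusted p is the Benjamini-Hochberg value over 34766 tested probes. The brightest probe stood for a gene. Of the 38 genes, 34 passed the background filter, and 33 could be fitted, because the Hoxc5 spots of all 3 arrays of E2 at 2 hr were flagged as outliers. Hoxd1 and Hoxd13 passed the filter through 1 group alone (E2 and E3 at 2 hr, respectively) so their differences there follow in part from the filter. These are given with no test, and counts are also given over the other 31 genes.

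At 2 hr 10 of 33 Hox genes were called lower with E2 and 14 with E3, most of them in the Hoxa and Hoxb clusters. E2 called 12 of 33 Hox genes, 10 lower and 2 higher (11 of 31 without Hoxd1 and Hoxd13, 10 lower and 1 higher), against 21.2% of all tested probes called (10.7% lower and 10.6% higher). E3 called 14 of 33 (also 14 of 31), all lower, against 13.8% of all probes (9.11% lower and 4.68% higher). The median Hox change was -0.74 with E2 and -0.94 with E3 on the log2 scale, beside -0.08 and -0.11 over all probes. The fold change was below 0 for 27 and 29 of the 33 genes, respectively. In these whole-tissue samples fewer cells of a type and less RNA per cell cannot be told apart. Without the arrays with pancreas RNA the E3 count was 9, all 9 among the 14, which left 1 E3 array at 2 hr. Hoxb3, Hoxc6, and Hoxd4 were then not called but were still over 2-fold lower (-1.17, -1.25, and -1.22), Hoxb8 was not called (-0.82), and Hoxa10 could not be fitted. All 3 E3 arrays at 2 hr lay on 1 slide with saline array 3. With slide as a fixed block 9 genes were called, without Hoxa5, Hoxb3, Hoxb5, Hoxb8, and Hoxd3 (-1.97, -0.99, -1.27, -1.32, and -1.85), and against saline array 3 alone, with the spread taken from the other groups, 12 were, 11 of them among the 14, without Hoxa6, Hoxb3, and Hoxb8 (-1.48, -0.99, and -1.32). Normexp background correction also gave 9, without Hoxa2, Hoxa6, Hoxb3, Hoxb8, and Hoxd3, all still below saline (-0.87 to -1.34).

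By cluster, E3 at 2 hr called 7 of 11 Hoxa, 4 of 8 Hoxb, 1 of 5 Hoxc, and 2 of 9 Hoxd genes lower. E2 called 5 of 11 Hoxa and 4 of 8 Hoxb genes lower, 1 of 5 Hoxc genes higher, and 1 of 9 Hoxd genes (Hoxd4) lower. The Hoxd gene counted as higher is Hoxd1, which carries no test. Both compounds called 10 genes lower, namely Hoxa2, Hoxa5, Hoxa9, Hoxa10, Hoxa11, Hoxb3, Hoxb4, Hoxb5, Hoxb8, and Hoxd4. Both comparisons use the same saline arrays. E2 called 10.7% and E3 9.11% of all probes lower, and the share called lower with both was not counted. The overlap of the 2 gene lists is therefore a description. At adjusted p under 0.05 with no minimum fold, E2 passed 23 genes (2 higher and 21 lower; 1 higher and 21 lower without Hoxd1 and Hoxd13) beside 61.9% of all probes (29.2% higher and 32.8% lower). E3 passed 25 genes (1 higher and 24 lower) beside 49.7% (18.7% higher and 30.9% lower). The arrays of E2 and saline did not overlap for 24 of 33 Hox genes (23 of 31 without Hoxd1 and Hoxd13), beside 67.2% of all probes, and those of E3 and saline for 25 (also 25 of 31), beside 58% of all probes.

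**Figure D2:**
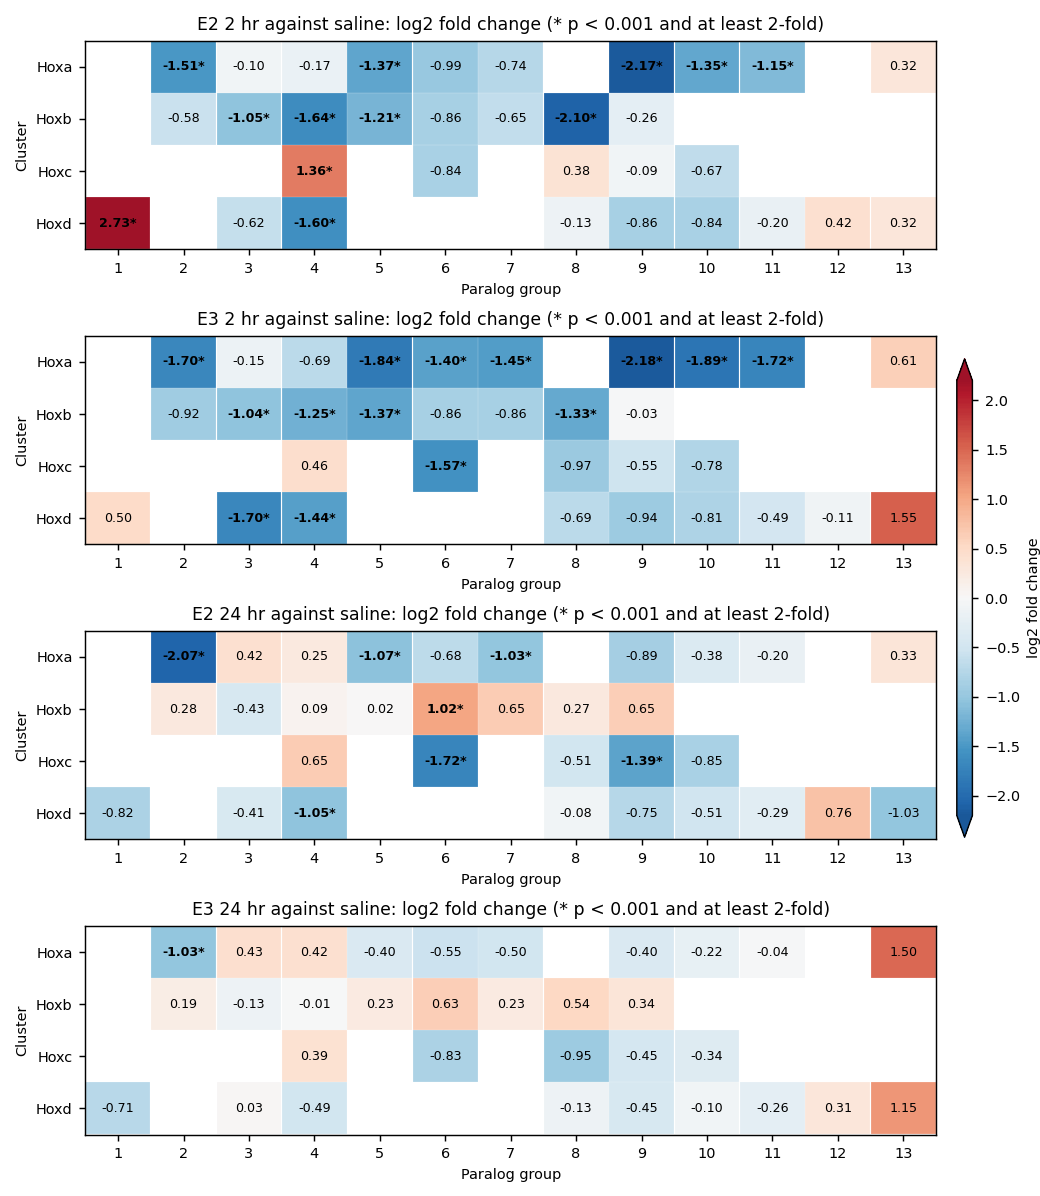
Log2 fold change of the fitted Hox genes shown against saline, by cluster (rows) and paralog group (columns), with E2 at 2 hr, E3 at 2 hr, E2 at 24 hr, and E3 at 24 hr from top to bottom. Blue is lower and red higher, and asterisks mark p below 0.001 with at least 2-fold. Most Hoxa and Hoxb cells are blue at 2 hr (to -2.17 and -2.18 for Hoxa9), and 1 cell is marked with E3 at 24 hr (Hoxa2, -1.03). Hoxd1 and Hoxd13 were not well above background on the saline arrays, so their cells, the asterisk of Hoxd1 included, are fitted values and no measured fold or test.

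Of the reproductive tract genes, Hoxa9, Hoxa10, and Hoxa11 fell at 2 hr. Hoxa9, which marks the oviduct end of the axis, lay at 1.28, 1.38, and 1.39 on the saline arrays, at -0.84, -0.86, and -0.77 after E2, and at -0.79, -0.89, and -0.81 after E3. The treated arrays of both compounds lay together, far below the vehicle arrays. The fall was 4.51-fold with E2 (log2 -2.17 ± 0.10 SE, adjusted p = 9.9e-09, limma) and 4.54-fold with E3 (log2 -2.18 ± 0.10, adjusted p = 1.9e-08).

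Hoxa10, needed for decidualization of the uterine stroma, lay at 3.16, 2.92, and 3.08 on the saline arrays. It lay at 1.93, 1.5, and 1.67 at 2 hr of E2 and at 1.40, 1.23, and 0.84 at 2 hr of E3. No treated array reached the lowest saline array. The fall was 2.56-fold with E2 (log2 -1.35 ± 0.15, adjusted p = 1.3e-05, limma) and 3.72-fold with E3 (log2 -1.89 ± 0.15, adjusted p = 1.9e-06).

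Hoxa11, its neighbor and likewise required for implantation, lay at 3.95, 3.71, and 3.88 with saline, 2.99, 2.55, and 2.54 with E2, and 2.19, 2.17, and 2.03 with E3. The 3 groups did not overlap. It fell 2.22-fold with E2 (log2 -1.15 ± 0.11, adjusted p = 3.3e-06, limma) and 3.28-fold with E3 (log2 -1.72 ± 0.11, adjusted p = 2.9e-07). Hoxa13, the most 5′ gene of the cluster, changed by 0.32 with E2 and 0.61 with E3, neither called, and its values are given further on.

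Among the middle and 3′ Hoxa genes, Hoxa2 and Hoxa5 were called lower with both compounds. Hoxa2, which patterns the hindbrain and the second pharyngeal arch in the embryo, lay at -3.03, -3.05, and -3.16 with saline. At 2 hr it lay at -4.39, -4.79, and -4.59 with E2 (log2 -1.51 ± 0.13, 2.85-fold) and at -4.50, -5.01, and -4.83 with E3 (log2 -1.70 ± 0.13, 3.24-fold). Hoxa5, known for its part in lung development, was at -2.60, -2.57, and -2.40 with saline, at -3.59, -4.27, and -3.82 with E2, and at -3.85, -4.59, and -4.68 with E3. Its fall was 2.58-fold with E2 (adjusted p = 0.00012, limma) and 3.59-fold with E3 (adjusted p = 1.7e-05). For both genes all treated arrays lay below all saline arrays.

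Hoxa6 and Hoxa7, homeobox genes of the trunk, were called for E3 alone at 2 hr. Hoxa6 lay at -4.50, -4.27, and -4.27 with saline, -5.67, -5.34, and -4.99 with E2, and -5.78, -5.72, and -5.74 with E3. The E3 change was log2 -1.40 ± 0.26 (2.65-fold), and the E2 change of -0.99 ± 0.26 was 1.98-fold and missed the cutoffs of p and of fold (adjusted p = 0.0049, limma). Hoxa7 lay at 1.08, 1.31, and 1.31 with saline, 0.78, 0.22, and 0.49 with E2, and -0.22, -0.45, and 0.00 with E3. The E3 arrays lay below all E2 arrays, and the changes were log2 -1.45 ± 0.16 with E3 (2.74-fold) and -0.74 ± 0.16 with E2 (1.67-fold). Hoxa4 changed by -0.17 with E2 and by -0.69 with E3 without being called.

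In the Hoxb cluster the called genes were Hoxb3, Hoxb4, Hoxb5, and Hoxb8. Hoxb4, known for the expansion of hematopoietic stem cells, lay at -2.39, -2.15, and -2.23 with saline, -4.18, -3.84, and -3.67 with E2, and -3.52, -3.41, and -3.59 with E3. The fall was 3.11-fold with E2 (log2 -1.64 ± 0.14) and 2.38-fold with E3 (log2 -1.25 ± 0.14). Hoxb8, a gene of the myeloid lineage and of the trunk, lay at -2.94, -3.48, and -3.21 with saline, -5.37, -5.52, and -5.03 with E2, and -4.03, -4.80, and -4.77 with E3. This was 4.28-fold lower with E2 (log2 -2.10 ± 0.23) and 2.51-fold lower with E3 (log2 -1.33 ± 0.23). Without the arrays with pancreas RNA the E3 change of Hoxb8 rested on 1 array and was -0.82, no longer called.

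Hoxb5, which takes part in enteric nervous system development, was at -0.29, -0.39, and -0.47 with saline, -1.39, -1.71, and -1.67 with E2, and -1.52, -1.75, and -1.98 with E3. The fall was 2.31-fold (log2 -1.21 ± 0.12) and 2.58-fold (log2 -1.37 ± 0.12), respectively. Hoxb3 was at -0.75, -0.81, and -0.85 with saline, -1.98, -1.51, and -2.07 with E2, and -1.97, -1.70, and -1.85 with E3. Its changes of -1.05 ± 0.15 and -1.04 ± 0.15 were 2.07- and 2.06-fold, close to the cutoff. It was not called with E2 when E2 array 1 or 3 at 2 hr was left out (-0.98 and -0.94), nor with E3 when E3 array 1 was left out (-0.97).

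The remaining Hoxb genes moved less. Hoxb2, Hoxb6, and Hoxb7 changed by -0.58, -0.86, and -0.65 with E2 and by -0.92, -0.86, and -0.86 with E3, under 2-fold, each with adjusted p at most 0.00076 (limma). Hoxb9 changed by -0.26 and -0.03.

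**Figure D3:**
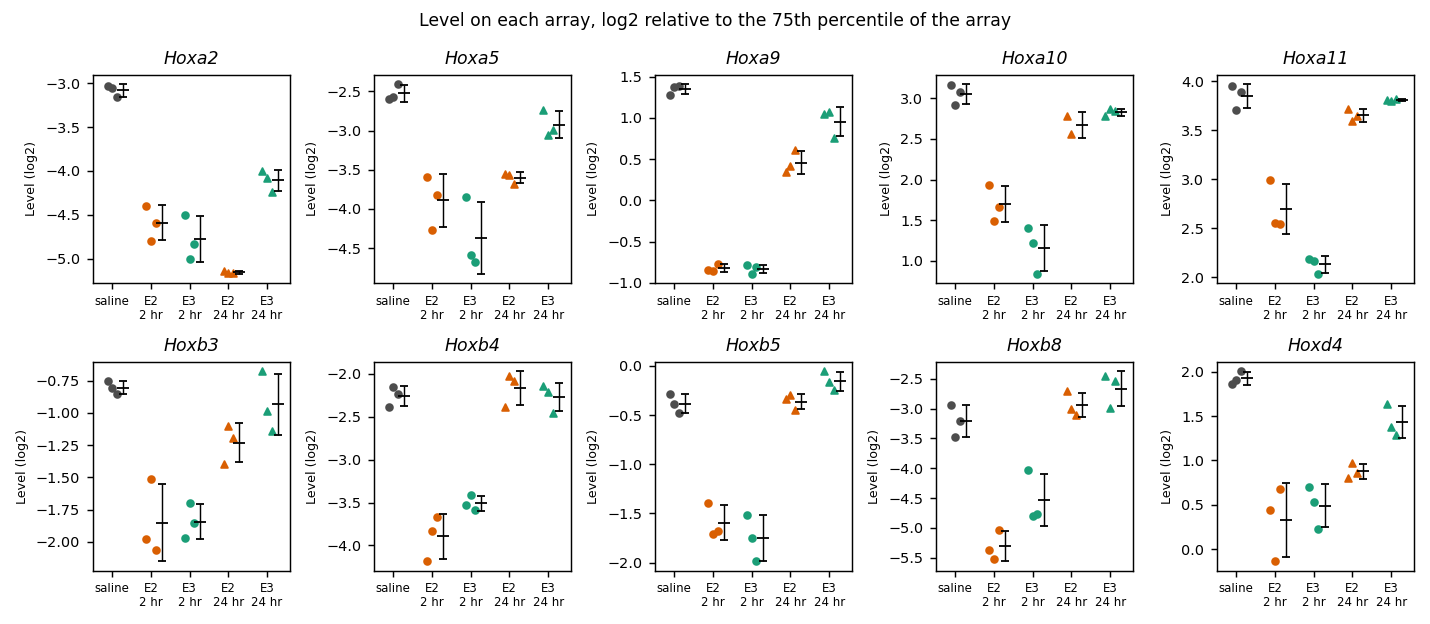
Level of the 10 Hox genes called lower after both estrogens at 2 hr, on each array (log2 relative to the 75th percentile of the array; each panel has its own axis). Points are arrays, circles saline and 2 hr, triangles 24 hr, orange E2, and green E3, and black bars are the mean ± SD of each group. In all 10 panels the circles of E2 and E3 lie below the saline arrays. At 24 hr Hoxb4 (-2.03 to -2.45) overlaps saline again, whereas Hoxa2 with E2 (-5.14 to -5.17) is lower than at 2 hr.

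The Hoxc and Hoxd genes differed among themselves. Hoxd4, a gene of the cervical spine and hindbrain, lay at 1.86, 1.91, and 2.01 with saline, 0.44, -0.14, and 0.67 with E2, and 0.70, 0.53, and 0.23 with E3. It fell 3.03-fold (log2 -1.60 ± 0.18) and 2.71-fold (log2 -1.44 ± 0.18). Hoxd3 lay at -3.61, -3.61, and -3.38 with saline, -3.82, -4.39, and -4.26 with E2, and -4.86, -5.14, and -5.71 with E3. The E3 fall was 3.25-fold (log2 -1.70 ± 0.20) and the E2 change -0.62 ± 0.20 was not called.

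Hoxc6, expressed in the thoracic trunk of the embryo, lay at 0.53, 0.40, and 0.77 with saline, 0.03, -0.61, and -0.23 with E2, and -0.68, -1.25, and -1.07 with E3. It fell 2.96-fold with E3 (log2 -1.57 ± 0.18), and the E2 change was -0.84 ± 0.18. Hoxd8, Hoxd9, Hoxd10, and Hoxd11 changed by -0.13 to -0.86 with E2 and -0.49 to -0.94 with E3 with no call, and Hoxc10 changed by -0.67 and -0.78. Hoxc5, fitted on the 12 arrays other than E2 at 2 hr, changed by -0.61 ± 0.19 with E3 at 2 hr (adjusted p = 0.020, limma), -0.77 ± 0.19 with E2 at 24 hr (adjusted p = 0.0049), and -0.55 ± 0.19 with E3 at 24 hr (adjusted p = 0.043). Its processed signal on the set-aside spots of E2 at 2 hr was 1823, 522.1, and 2373, against 17.4 to 57.2 on the other arrays, and these spots count Hoxc5 as well above background on all 15 arrays.

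Hoxc4 was called higher with E2 at 2 hr, the group of another strain. It lay at -4.23, -4.40, and -4.77 with saline, -2.93, -3.27, and -3.12 with E2, and -4.16, -3.95, and -3.89 with E3. The E2 rise was 2.57-fold (log2 1.36 ± 0.14, adjusted p = 4.4e-06, limma), and the E3 change was 0.46 ± 0.14. The Hoxc4 call was lost in 1 of the 17 alternatives run on it, with the direction kept. Hoxd1 lay at -7.33, -6.05, and -5.90 on the E2 arrays at 2 hr, the only arrays on which it was well above background. It was not well above background with saline (-8.93, -9.28, and -9.25). Against the lowest signal among detected probes it was at least 3.23-fold higher than saline, a description with no test, since the filter kept it for these arrays alone. With normexp background correction the difference was 0.52 on the log2 scale.

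The promoters of these genes were searched for the letters of the estrogen response element, because members moved together and the estrogen receptor binds this element. RefSeq windows (GRCm38.p6) held the 250 bases before the start of 22 Hox genes (24 windows). The full element GGTCANNNTGACC was in 0 of 24 Hox windows and in 0.0639% of all 32851 windows. A half-site, GGTCA or its complement TGACC, was in 11 of 24 Hox windows (45.8%) and in 35.2% of all windows. Of the 10 genes called lower after both estrogens, 8 had a window and 4 of these held a half-site. These 4 are shown 5′ to 3′ with half-sites in capitals. They are chr6:52227371-52227620 (minus strand) for Hoxa9, chr6:52245811-52246060 (minus strand) for Hoxa11, chr11:96318017-96318266 (plus strand) for Hoxb4, and chr2:74721728-74721977 (plus strand) for Hoxd4.
Hoxa9: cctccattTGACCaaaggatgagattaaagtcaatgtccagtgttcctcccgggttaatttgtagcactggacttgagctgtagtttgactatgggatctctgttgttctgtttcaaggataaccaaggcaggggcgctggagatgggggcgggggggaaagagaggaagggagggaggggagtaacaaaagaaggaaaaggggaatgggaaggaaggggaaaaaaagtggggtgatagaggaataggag
Hoxa11: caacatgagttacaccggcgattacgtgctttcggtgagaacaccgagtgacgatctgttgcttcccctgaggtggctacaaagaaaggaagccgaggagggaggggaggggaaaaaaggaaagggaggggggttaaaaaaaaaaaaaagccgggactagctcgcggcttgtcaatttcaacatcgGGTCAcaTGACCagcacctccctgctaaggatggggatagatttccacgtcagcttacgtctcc
Hoxb4: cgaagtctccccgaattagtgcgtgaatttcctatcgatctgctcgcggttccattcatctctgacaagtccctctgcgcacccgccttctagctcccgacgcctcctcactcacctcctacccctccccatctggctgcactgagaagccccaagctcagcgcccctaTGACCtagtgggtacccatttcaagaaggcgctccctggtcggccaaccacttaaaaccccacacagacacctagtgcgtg
Hoxd4: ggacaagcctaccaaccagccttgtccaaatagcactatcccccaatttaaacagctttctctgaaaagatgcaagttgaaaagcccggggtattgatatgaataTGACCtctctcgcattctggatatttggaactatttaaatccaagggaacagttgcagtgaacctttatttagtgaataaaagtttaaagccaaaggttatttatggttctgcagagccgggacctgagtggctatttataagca
In the Hoxa11 window the half-sites face each other at -64 and -57 from the start with a gap of 2 bases (GGTCANNTGACC), which was in 0.0731% of all windows. That spacing is the one seen in this window, so its share over all windows is a description and no test. A match is a string of letters and says nothing of binding.

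At 24 hr the genes called lower with E2 were Hoxa2, Hoxa5, Hoxa7, Hoxc6, Hoxc9, and Hoxd4, and Hoxb6 was called higher. The share of Hox genes called was close to that of all probes. E2 called 7 of 33 Hox genes at 24 hr, 6 lower and 1 higher, against 18.1% of all probes (11.1% lower and 6.93% higher). E3 called 1 of 33 (Hoxa2, lower), against 3.81% of all probes (1.85% higher and 1.96% lower). In the Hoxb cluster 4 of 8 genes were higher and 1 lower with E2 at adjusted p under 0.05, and 1 was higher with E3, with medians of 0.27 and 0.23. The median Hox change was -0.41 with E2 and -0.12 with E3, beside -0.06 and -0.01 over all probes. At adjusted p under 0.05 with no minimum fold, E2 passed 19 genes (6 higher and 13 lower) beside 61.4% of all probes (27.3% higher and 34.1% lower), and E3 passed 9 (4 higher and 5 lower) beside 34.1% (15.6% higher and 18.5% lower). The groups did not overlap for 23 genes with E2 (22 of 31 without Hoxd1 and Hoxd13), beside 68.8% of all probes, and for 21 with E3 (20 of 31), beside 51.4%. The called E2 count turned on single arrays, with 3 called without saline array 3 and 4 without E2 array 2. It was 4 without the arrays with pancreas RNA, and only 2 of these were among the 7. The E3 count was 0 without E3 array 3.

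Hoxa2 was lowest with E2 at 24 hr, at -5.14, -5.17, and -5.16, against -4.00, -4.08, and -4.24 with E3. The change from saline was 4.21-fold with E2 (log2 -2.07 ± 0.13, adjusted p = 2.9e-07, limma) and 2.04-fold with E3 (log2 -1.03 ± 0.13, adjusted p = 0.00024). The E3 change was -0.96 without E3 array 3 and -0.28 with normexp background correction, neither called. The E2 call was lost in 1 of 19 alternatives, normexp background correction, with the direction kept. Hoxc6 lay at -1.10, -1.13, and -1.25 with E2 and at -0.18, -0.18, and -0.44 with E3. It was 3.30-fold lower with E2 (log2 -1.72 ± 0.18), and the E3 change was -0.83 ± 0.18, 1.78-fold. In both genes the E3 arrays lay between the E2 and the saline arrays.

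Hoxc9, a thoracic gene, was called at 24 hr of E2 alone among the comparisons with saline. It lay at -1.73, -2.27, and -1.53 with saline, at -1.58, -2.08, and -2.13 and at -1.90, -2.60, and -2.68 at 2 hr of E2 and E3, and at -2.82, -3.34, and -3.54 at 24 hr of E2. The fall was 2.61-fold (log2 -1.39 ± 0.28, adjusted p = 0.0010, limma). At 24 hr of E3 it lay at -1.97, -2.26, and -2.66, overlapping saline (-0.45 ± 0.28). The call with E2 was lost when saline array 1 or 3 or E2 array 2 or 3 was left out (-1.23 to -1.33), without the arrays with pancreas RNA (-0.98), with normexp background correction (-1.21), and with quantile normalization (-1.25), with the direction kept.

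The other called genes at 24 hr lay close to the 2-fold cutoff. Hoxa5 was at -3.56, -3.56, and -3.68 with E2 and at -2.73, -3.05, and -3.00 with E3, changes of -1.07 ± 0.21 and -0.40 ± 0.21. Hoxa7 was at 0.27, 0.07, and 0.26 with E2 and at 0.93, 0.78, and 0.50 with E3 (-1.03 ± 0.16 and -0.50 ± 0.16). Hoxd4 was at 0.80, 0.97, and 0.86 with E2 and at 1.63, 1.38, and 1.28 with E3 (-1.05 ± 0.18 and -0.49 ± 0.18). In each of these 3 genes all E2 arrays lay below all E3 arrays. The E2 call of Hoxa5 was lost without saline array 3 (-1.01) or E2 array 3 (-1.03), and that of Hoxa7 without saline array 2 (-0.99) or 3 (-1.0) or E2 array 2 (-0.97). In all, the Hoxa5 call was lost in 6 of 19 alternatives, normexp background correction and quantile normalization among them. Without the arrays with pancreas RNA neither Hoxa5 (-1.03), Hoxa7 (-0.96), nor Hoxd4 (-1.13) was called, with 1 E2 array left.

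Hoxb6 rose. It lay at 1.80, 1.60, and 1.58 with saline, at 0.86, 0.79, and 0.74 and at 1.02, 0.99, and 0.40 at 2 hr of E2 and E3, and at 2.65, 2.74, and 2.64 at 24 hr of E2. The 24-hr E2 rise was 2.02-fold (log2 1.02 ± 0.14, adjusted p = 4.9e-05, limma), and E3 at 24 hr gave 2.34, 2.27, and 2.27 (0.63 ± 0.14, 1.55-fold). Its E2 call was lost when saline array 2 or 3 or E2 array 2 was left out (0.98 to 0.99), without the arrays with pancreas RNA (0.99), with quantile normalization (0.88), with the percentile taken over probes above background on all arrays (0.97), and with no scaling (1.0). Hoxb7, which lies beside it, changed by 0.65 with E2 and 0.23 with E3.

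Hoxa10 and Hoxa11 were not called at 24 hr, and Hoxa9 was lower by less than 2-fold. Hoxa10 lay at 2.78 and 2.56 with E2, where the spot of array 1 was flagged as an outlier and dropped, and at 2.78, 2.86, and 2.85 with E3. The changes were -0.38 ± 0.17 and -0.22 ± 0.15, not called. Hoxa11 lay at 3.71, 3.59, and 3.65 with E2 and at 3.80, 3.80, and 3.82 with E3, overlapping the saline arrays (-0.20 ± 0.11 and -0.04 ± 0.11). Hoxa9 stayed lower at 0.34, 0.42, and 0.62 with E2 (-0.89 ± 0.10, 1.86-fold, adjusted p = 9.8e-06, limma) and at 1.04, 1.07, and 0.75 with E3 (-0.40 ± 0.10, adjusted p = 0.0086), under the fold cutoff. Without the arrays with pancreas RNA the E2 change of Hoxa9 was -1.01 and called.

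Hoxa13, the gene of the cervix and upper vagina, varied widely within groups. It lay at -5.40, -7.18, and -6.15 with saline and at -5.08, -6.24, and -6.45 at 2 hr of E2. With E3 it lay at -7.18, -4.66, and -5.05 at 2 hr and at -5.34, -3.60, and -5.29 at 24 hr, and with E2 at 24 hr at -5.85, -5.68, and -6.22. The 4 changes from saline ranged from 0.32 to 1.5 with SE 0.69, and none was called (smallest adjusted p = 0.11, limma). A second Hoxa13 probe gave the same order of arrays at the top, -3.45 on array 2 of E3 at 24 hr and -4.44 on array 2 of E3 at 2 hr. Hoxd13 was highest on the same arrays, -4.89 on array 2 of E3 at 24 hr and -5.84 and -6.41 on arrays 2 and 3 of E3 at 2 hr, the 3 arrays on which it was well above background. It had no call. How far along the tract each dissection reached was not tested.

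**Figure D4:**
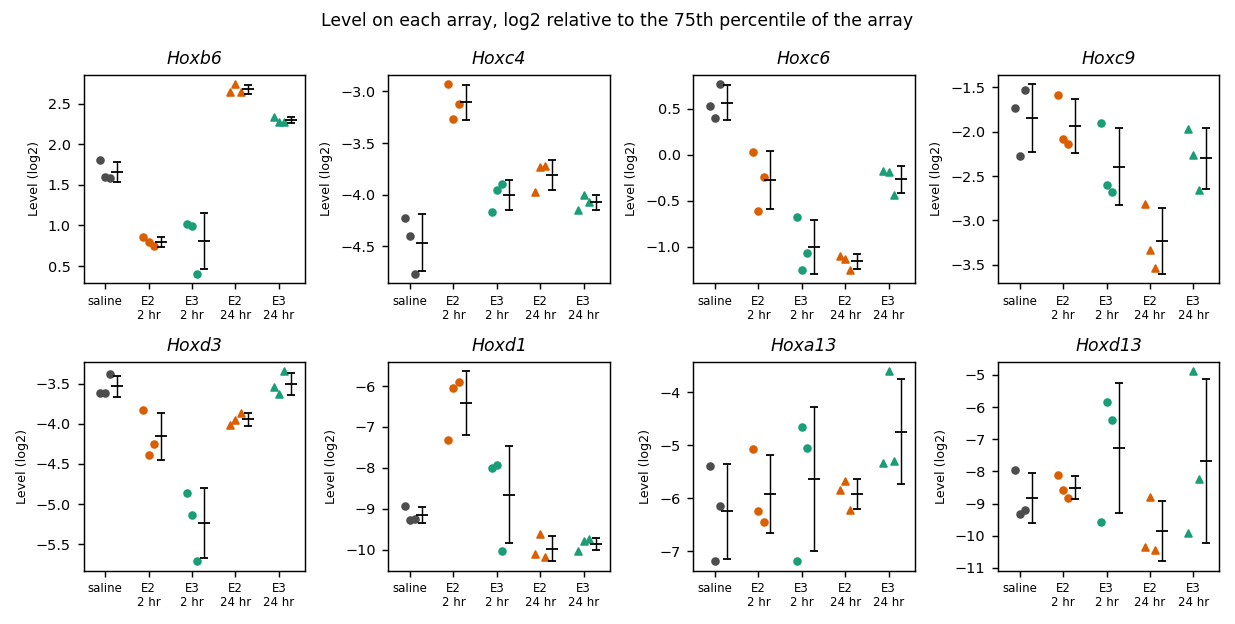
Level on each array of Hox genes that departed from the common pattern (log2 relative to the 75th percentile of the array; each panel has its own axis; symbols and bars as in the plot of the genes lower at 2 hr). Hoxb6 is highest with E2 at 24 hr (2.64 to 2.74), Hoxc9 is lowest there (-2.82 to -3.54), Hoxc4 and Hoxd1 are highest with E2 at 2 hr, and Hoxa13 and Hoxd13 spread within groups. Hoxd1 values other than those of E2 at 2 hr were not well above background.

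E3 and E2 were compared at matched dose and time, 2 pairs in all. At 2 hr E3 was called lower than E2 for 2 of 33 Hox genes (1 of 31 without Hoxd1 and Hoxd13), against 7.37% of all probes (5.83% lower and 1.54% higher). Hoxd3 was 2.11-fold lower with E3 (log2 -1.08 ± 0.20, adjusted p = 0.00092, limma). Hoxd1, not well above background with E3, was at least 2.84-fold lower, given with no test as above. Hoxd3 was not called without the arrays with pancreas RNA (-0.70), without E2 array 1 (-0.91), or without E3 array 3 (-0.84). The second Hoxd3 probe differed by -0.26. At adjusted p under 0.05 with no minimum fold, 13 of 33 genes differed, 11 lower and 2 higher (Hoxb4 and Hoxb8) with E3 (10 lower and 2 higher of 31 without Hoxd1 and Hoxd13), beside 43.3% of all probes (26.3% lower and 17% higher). Hoxa9 differed by -0.01 with a 95% interval of -0.22 to 0.20, so a difference of 2-fold lies outside it. The interval was -0.87 to -0.21 for Hoxa10 and -0.82 to -0.32 for Hoxa11. The strain and slides of the 2-hr E2 arrays enter every one of these differences.

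At 24 hr the comparison was within C57bl6/J mice. E3 called 1 of 33 Hox genes higher than E2, against 4.85% of all probes (2.77% higher and 2.07% lower). This was Hoxa2, 2.07-fold higher with E3 (log2 1.05 ± 0.13, adjusted p = 0.00011), and the call was lost without E3 array 1 (0.99). All 11 Hoxa genes had a difference above 0, with a median of 0.49 beside 0.06 over all probes. At adjusted p under 0.05 with no minimum fold 12 of 33 differed, 10 higher with E3 (Hoxa2, Hoxa5, Hoxa7, Hoxa9, Hoxc6, Hoxc9, Hoxc10, Hoxd4, Hoxd9, and Hoxd10) and 2 lower (Hoxb6 and Hoxb7), beside 36.5% of all probes (20.8% higher and 15.7% lower). The differences of Hoxc6 and Hoxc9 were 0.89 ± 0.18 and 0.93 ± 0.28. For Hoxa10 the interval was -0.21 to 0.53 and for Hoxa11 -0.09 to 0.41. E3 and E2 arrays did not overlap for 14 of 33 genes at 2 hr (13 of 31 without Hoxd1 and Hoxd13), beside 50.8% of all probes, and for 18 at 24 hr, beside 51.2%.

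**Figure D5:**
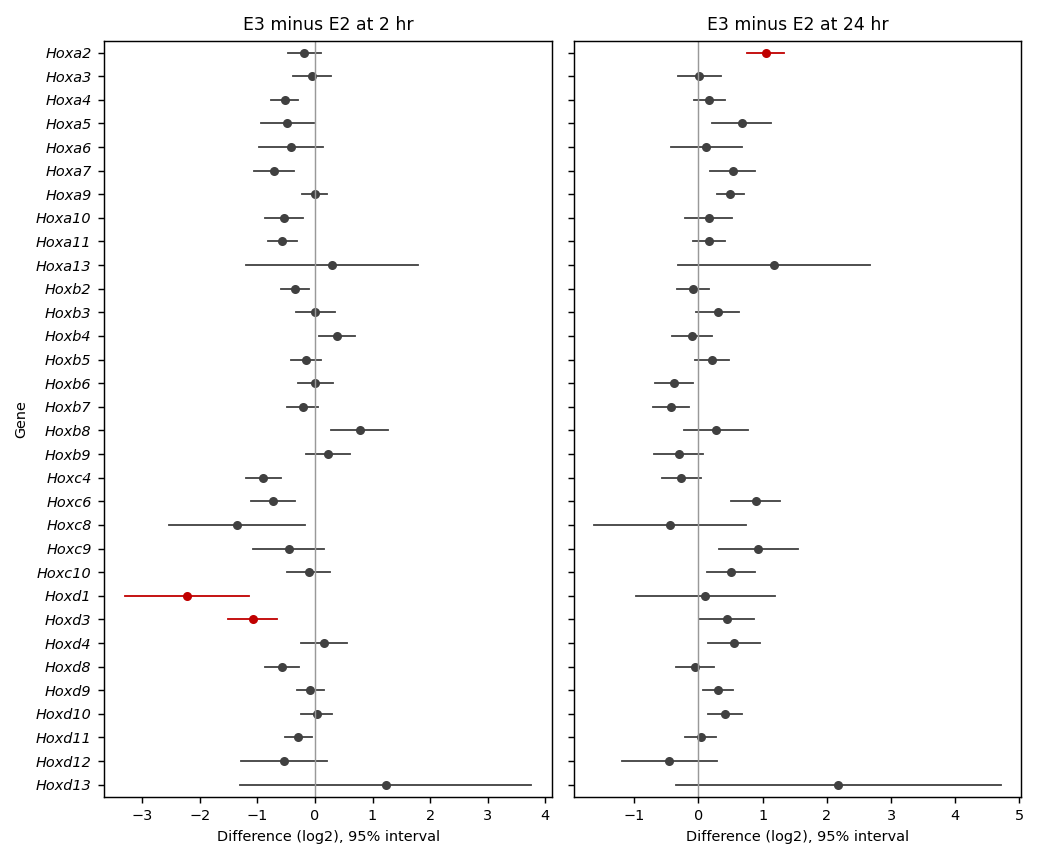
Difference between E3 and E2 for the fitted Hox genes shown at 2 hr (left) and 24 hr (right), as log2 with 95% interval from limma. Red marks a call at p below 0.001 and at least 2-fold. At 2 hr Hoxd3 (-1.08) is red. Hoxd1 is red too, but as a fitted value against arrays on which it was not well above background, where the measured difference is the bound of 2.84-fold and no test applies. At 24 hr Hoxa2 (1.05) is red with all other Hoxa points above 0.

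The 2 times of each compound were compared directly. From 2 to 24 hr of E3, 12 of 33 Hox genes were called higher and 0 lower, against 16.1% of all probes (9.65% higher and 6.47% lower). These were Hoxa4, Hoxa5, Hoxa9, Hoxa10, Hoxa11, Hoxb2, Hoxb4, Hoxb5, Hoxb6, Hoxb7, Hoxb8, and Hoxd3, with rises from 1.09 to 1.87. Hoxa4 lay at -6.80, -6.98, and -6.83 at 2 hr and at -5.71, -5.68, and -5.88 at 24 hr. Hoxb2 lay at 0.60, 0.28, and 0.10 and at 1.55, 1.44, and 1.34, and Hoxb7 at 1.52, 1.46, and 1.02 and at 2.55, 2.41, and 2.30. The 2 times did not overlap in these 3 genes, though Hoxb2 and Hoxb7 were no longer called without E3 array 3 at 2 hr (1.00 and 0.93). The Hoxa4 call was lost in 2 of the 18 alternatives run on it. Without the arrays with pancreas RNA, which left 1 array at 2 hr, 7 of the 12 were called. Hoxa5, Hoxb2, Hoxb7, and Hoxb8 were not, with differences still above 0 (0.92, 0.84, 0.90, and 1.36), and Hoxa10 could not be fitted.

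From 2 to 24 hr of E2, 6 Hox genes were called higher and 2 lower (6 and 1 of 31 without Hoxd1 and Hoxd13), against 31.1% of all probes (13.9% higher and 17.2% lower). Hoxa9 and the Hoxb genes Hoxb4, Hoxb5, Hoxb6, Hoxb7, and Hoxb8 rose by 1.23 to 2.36, the largest being Hoxb8 (5.15-fold). Hoxc9 fell by 1.30, a call lost when any array of the 2-hr group or E2 array 2 or 3 at 24 hr was left out, without the arrays with pancreas RNA (-0.89), and with normexp background correction (-1.06). Hoxd1 was at least 3.23-fold lower at 24 hr, again with no test. All 8 tested Hoxb genes had a difference above 0 with each compound, with medians of 1.18 for E3 and 1.26 for E2, beside 0.12 and 0.02 over all probes. At adjusted p under 0.05 with no minimum fold, 24 genes rose and 0 fell with E3, beside 55.3% of all probes (33% higher and 22.3% lower). With E2 15 were higher and 5 lower (15 and 4 of 31 without Hoxd1 and Hoxd13), beside 69.9% (34.4% higher and 35.5% lower). The times did not overlap for 24 genes with E3, beside 62% of all probes, and for 20 with E2 (19 of 31), beside 72.9%. The 5 tested Hoxc genes had a median of 0.10 with E3 and -0.88 with E2.

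Genes with several probes did not always agree. For Hoxa3 the probe brightest over all 15 arrays changed by -0.10 and -0.15 at 2 hr of E2 and E3 (not called), whereas its other probe fell 3.86- and 6.12-fold at 2 hr and 2.57-fold at 24 hr of E2, all called. On the saline arrays that other probe was the brighter one (processed signal 195.0, 242.8, and 331.6 against 179.9, 181.7, and 227.3), so the choice of the probe that stood for Hoxa3 turned on the treated arrays. With the probe brightest on the saline arrays standing for each gene, which changed the probe of Hoxa3 and Hoxa13, E2 and E3 called 13 and 15 genes at 2 hr and 8 and 1 at 24 hr. That other Hoxa3 probe lay at -3.94, -3.97, and -3.73 with saline and at -6.00, -6.48, and -7.00 at 2 hr of E3. A probe that carries the Hoxb2 name is annotated on the minus strand, opposite to Hoxb2 and all other Hoxb probes, and had no RefSeq match, so it is not given as a level of Hoxb2. It fell 2.68- and 4.20-fold at 2 hr and 3.27-fold at 24 hr of E2, where the Hoxb2 probe changed by -0.58, -0.92, and 0.28. For Hoxb8 the dimmer probe changed by -0.11 and -0.15 at 2 hr, against -2.10 and -1.33 for the brighter. The dimmer Hoxb6 probe rose by 0.43 at 24 hr of E2, against 1.02. At 2 hr of E2 it was called lower (-1.05, against -0.86 for the brighter). The dimmer Hoxc10 probe was also called lower there (-1.29, against -0.67), though well above background on 1 of these E2 arrays. With E3 at 2 hr neither dimmer probe was called (-0.78 and -0.77). Counting a gene when any probe was called gave 16 genes each at 2 hr of E2 and E3, and 9 and 1 at 24 hr. Without the opposite-strand probe these counts were 15, 15, 8, and 1. The share of all genes called by any probe was not counted, so these counts have no share to be read against. Probes of a gene can lie in different transcripts, and which transcripts they matched was not tested.

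Among the Hox cofactors, all 9 were tested. At 2 hr of E3 3 were called lower, among them Meis1 (-1.0 ± 0.15) and Meis2 (-1.20 ± 0.16), which partner with Hox proteins on DNA, and the median of the list was -0.43, beside 13.8% called, 9.11% lower, and a median of -0.11 over all probes. At 2 hr of E2 Pbx4 fell 3.16-fold (-1.66 ± 0.16) and Pknox1 rose 2.12-fold (1.08 ± 0.10), with a list median of -0.32, beside 21.2% called and a median of -0.08 over all probes. No cofactor was called at 24 hr with either compound.

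Of 8 genes known as Hox targets in the uterus or its lineages, 7 were tested. Itgb3, an integrin subunit linked to HOXA10, rose 4.06-fold with E2 and 4.10-fold with E3 at 2 hr. Ptger4, a prostaglandin E receptor, fell 3.73- and 3.01-fold, and Ptger3 fell 2.45-fold with E2. Fkbp4, a cochaperone of steroid receptors, rose 2.02-fold with E2 at 2 hr. At 24 hr Fkbp4 and Cdkn2b rose with E2 (1.18 and 1.01), and Igfbp1 was called lower with E2 and E3 (-3.54 and -2.86). Igfbp1 is also strongly expressed in liver. It lay at -2.19, -4.13, and -4.09 on saline arrays 1 to 3 and was highest on array 1, which also had the highest liver marker sum (21.8), and the part of liver RNA in its change was not tested. The counts were 2 higher and 2 lower with E2 and 1 each way with E3 at 2 hr, and 2 higher and 1 lower with E2 and 1 lower with E3 at 24 hr, beside 21.2%, 13.8%, 18.1%, and 3.81% of all probes called. Median changes were 0.45, -0.15, 0.70, and -0.06.

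Of 14 genes of the Mullerian duct and uterine patterning, 13 were tested. Wnt4 rose 6.49-fold with E2 and 8.58-fold with E3 at 2 hr, while Amhr2, the receptor of anti-Mullerian hormone, fell 2.99- and 2.36-fold. The counts at 2 hr were 2 higher and 3 lower with E2 and 1 higher and 2 lower with E3, and at 24 hr Wnt7a alone was called, lower with E2 (-1.31 ± 0.26), beside the same shares of all probes. The medians were -0.19, -0.15, 0.17, and 0.11, beside -0.08, -0.11, -0.06, and -0.01 over all probes. Of 14 Hox regulators, among them Polycomb and Trithorax genes that hold Hox clusters off or on, 11 were tested. Cbx2, a Polycomb subunit, fell 4.29-fold with E2 and 4.10-fold with E3 at 2 hr, and Ezh2, the Polycomb methyltransferase, rose 2.06-fold with E2 at 24 hr, the only calls of this list against saline, beside the same shares of all probes. The medians of this list were 0.16, 0.08, -0.16, and -0.27, and Cdx1, Cdx2, and Cdx4 did not pass the background filter.

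Cell type markers moved with some of these results. Hox genes are known from the uterine stroma, and 7 stroma markers had medians of -0.68 and -0.57 at 2 hr of E2 and E3, with 1 called lower in each (Col3a1 and Hand2, respectively), beside 10.7% and 9.11% of all probes called lower. Their summed level was 192.8 to 239.4 with saline, 180.8 to 211.2 at 2 hr of E2, 157.1 to 185.6 at 2 hr of E3, 271.6 to 294.7 at 24 hr of E2, and 293.4 to 330.1 at 24 hr of E3. The 7 epithelial markers had medians of -0.43 and -0.32 at 2 hr with 0 called, and at adjusted p under 0.05 4 and 2 of them were lower and 2 and 1 higher, beside 5 and 3 stroma markers lower and 0 higher. Over all probes at this threshold 32.8% and 30.9% were lower and 29.2% and 18.7% higher. At 24 hr the epithelial markers had medians of 1.03 with E2 (4 called higher) and 0.65 with E3 (0 called), beside 6.93% and 1.85% of all probes called higher, and summed to 172.0 to 183.9 and 126.4 to 135.4 against 77.1 to 104.4 with saline. The medians of 7 smooth muscle markers were -0.08, -0.06, 0.28, and 0.62. Their calls were Myocd lower at 2 hr of E3, Des and Actg2 higher at 24 hr of E2, and Actg2 higher at 24 hr of E3, beside 21.2%, 13.8%, 18.1%, and 3.81% of all probes called in the 4 comparisons. Endothelial, leukocyte, fat, skeletal muscle, and kidney lists had medians within -0.55 to 0.36 at 2 hr and within -1.83 (fat with E2) to 0.78 at 24 hr, and Ovgp1, the oviduct marker, was called lower at 24 hr of E2 (-1.47) and was lower at adjusted p under 0.05, without a call, at 2 and 24 hr of E3 (-0.92 and -1.19). Of the 9 liver markers, 9 and 1 were called lower than saline at 2 hr of E2 and E3 and 9 and 8 at 24 hr (medians -7.81, -2.0, -5.09, and -4.79), beside 10.7%, 9.11%, 11.1%, and 1.96% of all probes called lower. The part of stroma, epithelium, and liver RNA in the Hox changes was not tested.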

How the data were processed

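Cy3-labelled uterine cRNA was hybridized to 15 one-color Agilent arrays. The authors scanned and extracted them with Agilent Feature Extraction (9.5.3.1 in the file headers), and the deposited values are processed intensity (background subtracted, detrended within the array, not scaled between arrays). The deposited value table held the same intensity values. Outlier-flagged spots (1893) were set aside, spots of a probe averaged, and the log2 intensity was centered on the 75th percentile of each array (2989 to 4412 units). Tests used the 34766 of 41174 probes (84.5%) that 2 or more arrays of some group measured well above background, in limma 3.58.1 (R 4.3.3) with 5 group means over all arrays and no covariate. Arrays within a group correlated at 0.982 to 0.995, and 3 arrays per group limit the precision.

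A gene was given array by array when called in at least 1 comparison or when it was Hoxa9, Hoxa10, Hoxa11, or Hoxa13; from other lists at most 4 called genes per comparison were named. A Hox gene was represented by its probe of highest mean signal. The members and lists were chosen with earlier results of these data known. Folds against a group not well above background are bounds, computed against the lowest signal among probes well above background. RefSeq accessions (GRCm38.p6) matched 44 of 49 probes. Arrays of the same replicate number had positive correlations of their deviations in all 3 pairs for the 24 and 2 hr groups of each estrogen alone. These were 0.114, 0.378, and 0.544 for E3 and 0.049, 0.065, and 0.146 for E2. Alternatives were background correction, scaling, filter, outlier spots, call rule, slide, replicate block, strain, and leaving out arrays. The scripts were tested on simulated data. Values and sequences of a few items are not reported here, although the counts include them.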

Additional observations from a re-analysis of the deposited data

Results flagged for a closer look

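The level of 13 Hox genes differed between 2 and 24 hr of an estrogen, by the limma contrast of the times. No 2-hr vehicle array entered it, so a difference in estrogen effect was not tested. Values are log2 differences, 24 minus 2 hr. With E3 the differences were 1.12 for Hoxa4, 1.44 for Hoxa5, 1.79 for Hoxa9, 1.67 for Hoxa10, 1.68 for Hoxa11, and 1.73 for Hoxd3. In the Hoxb cluster they were 1.11 for Hoxb2, 1.24 for Hoxb4, 1.59 for Hoxb5, 1.49 for Hoxb6, 1.09 for Hoxb7, and 1.87 for Hoxb8. With E2 the differences were 1.28 for Hoxa9, 1.73 for Hoxb4, 1.23 for Hoxb5, 1.88 for Hoxb6, 1.30 for Hoxb7, and 2.36 for Hoxb8. No Hox gene was called lower at 24 hr with E3, and with E2 Hoxc9 was at -1.30. For both estrogens the times differ in slide, and for E2 also in strain and scanner, which cannot be told apart from time.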

How the results depend on the processing

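Alternatives were run on 67 gene results, the called comparisons of Hox genes and those of Hoxa9, Hoxa10, Hoxa11, and Hoxa13 with saline, and 0 of these reversed. Of their 1251 values, 1164 stayed on their side of the call, 86 were no longer called, and 1 became called. Normexp background correction gave 9 Hox genes called for E3 at 2 hr, 4 for E2 at 24 hr, and 0 each for E3 at 24 hr and for E3 against E2 at 2 and 24 hr, and it moved the median of all probes by 0.32 for E3 at 24 hr. Quantile normalization gave 4 for E2 at 24 hr, 0 for E3 at 24 hr, and 1 and 0 for E3 against E2 at 2 and 24 hr. No scaling gave 0 for E3 against E2 at 24 hr, and a mean signal above 100 gave 1 at 2 hr. Adjusted p under 0.05 with no minimum fold gave 23 and 25 for E2 and E3 at 2 hr, 19 and 9 at 24 hr, 13 and 12 for E3 against E2 at 2 and 24 hr, and 24 and 20 between the times of E3 and E2. The replicate block gave 1 for E3 against E2 at 2 hr and 9 between the times of E2, and it moved no other count; pair correlations were -0.458 to 0.544. Slide as a fixed block gave 9 for E3 at 2 hr, and 12 within the slide that holds both groups, where saline is 1 array assumed to vary like the others. Leaving out the 4 arrays with pancreas RNA, an alternative chosen after seeing the data that leaves 1 array in each of 2 groups, assumed to vary like the others, gave 9 for E3 at 2 hr, 4 for E2 at 24 hr, 0 for E3 against E2 at 2 hr, and 7 between the times of E3. Leaving out single arrays gave 11 to 12 and 14 to 15 for E2 and E3 at 2 hr, 3 to 7 and 0 to 1 at 24 hr, 1 to 2 and 0 to 1 for E3 against E2 at 2 and 24 hr, and 12 to 15 and 7 to 10 between the times of E3 and E2. The probe brightest on the saline arrays, also chosen after seeing the data, moved no count by over 1.5 times. The causes were not tested. Genes not well above background (Hoxb1, Hoxc12, and Hoxc13 on every array) have no measured change.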
